A study of Mus musculus with 30 samples.

Results

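A set of 9 genes of the complement system and its regulators was examined in C2C12 myotubes, chosen by name from the 55487 genes of the raw count table. They were the initiating proteases C1ra and C1s1, the central components C3 and C4b, the alternative pathway protease Cfb, the soluble regulators Serping1 and Clu, and the membrane regulators Cd55 and Cd59a. Of the 9 genes, 6 passed the filter on low counts and were tested, and 3 (C3, C4b and Cfb) were below detection, meaning that they failed the filter (at least 10 counts at the typical depth in 6 libraries). C2C12 is a mouse myoblast line of wild-type genotype, and its cells fuse into myotubes when serum is lowered. All cells were differentiated for 4 days in low-glucose medium with 2% horse serum and then kept for 4 further days, 8 days in total. The 5 groups of 6 libraries were 2% HS (serum kept), SD (serum deprived, no horse serum), MET (SD with 100 nM metformin), LEU (SD with 500 nM leucine) and MET+LEU (SD with both at the same doses). The labels do not say whether replicates were separate cultures, so p-values measure the spread between these libraries, which may be technical.

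Complement is a cascade of proteins that tag and lyse targets and recruit phagocytes. In the classical pathway, the C1 complex cleaves C4 and C2, and its proteases are C1r, which activates C1s, and C1s itself. The lectin pathway uses MASP proteases for the same step, and the alternative pathway uses factor B. All routes meet at C3. Host cells are protected by the C1 inhibitor (Serping1), decay-accelerating factor (Cd55), CD59, which blocks the membrane attack complex, and clusterin (Clu), a secreted chaperone that also binds terminal components. Plasma complement comes mainly from the liver, and many other cell types make some components locally.

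C1ra (ENSMUSG00000055172) and C1s1 (ENSMUSG00000038521) are neighbours on chromosome 6 of GRCm38, at 124512405 to 124523443 on the plus strand and at 124530345 to 124542359 on the minus strand. Cd55 (ENSMUSG00000026399) spans 130439027 to 130462744 on the minus strand of chromosome 1. C1ra and C1s1 rose together in SD vs. 2% HS and Cd55 fell, so the RefSeq promoter windows of these genes (GRCm38.p6, 250 bases before to 50 after the start) are shown 5′ to 3′, with motif matches in capitals. The C1ra window (chr6:124512371-124512670, plus strand) is set on a RefSeq start 216 bp from the GENCODE start. The C1s1 window (chr6:124542310-124542609, minus strand) and the Cd55 window (chr1:130462695-130462994, minus strand) are set on starts that both annotations share. RefSeq gave 2 windows for C1s1, and only the window on the shared start was searched.
C1ra: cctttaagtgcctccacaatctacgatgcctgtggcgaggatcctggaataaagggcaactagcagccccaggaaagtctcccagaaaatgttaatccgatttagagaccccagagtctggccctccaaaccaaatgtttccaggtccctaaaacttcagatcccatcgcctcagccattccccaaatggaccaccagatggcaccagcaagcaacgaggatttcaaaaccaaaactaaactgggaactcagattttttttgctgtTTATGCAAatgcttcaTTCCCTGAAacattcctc
C1s1: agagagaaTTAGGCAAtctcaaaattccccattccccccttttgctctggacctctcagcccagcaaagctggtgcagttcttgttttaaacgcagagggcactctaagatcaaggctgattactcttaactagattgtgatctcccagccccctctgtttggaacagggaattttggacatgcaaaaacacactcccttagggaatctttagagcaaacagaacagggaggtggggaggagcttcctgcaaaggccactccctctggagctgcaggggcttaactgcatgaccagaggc
Cd55: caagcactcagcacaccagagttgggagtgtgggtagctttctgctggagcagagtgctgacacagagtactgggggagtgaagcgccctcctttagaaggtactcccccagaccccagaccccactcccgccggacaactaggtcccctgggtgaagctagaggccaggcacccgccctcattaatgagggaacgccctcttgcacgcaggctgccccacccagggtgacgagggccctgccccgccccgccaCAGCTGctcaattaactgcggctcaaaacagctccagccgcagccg

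The windows were searched on both strands for 4 motifs, each spelled here with N for any base. The C/EBP motif TTGCNNAA, which 10.8% of 32851 RefSeq promoter windows hold, matched in C1ra (as TTATGCAA on the other strand, from base 17, where base 1 is the start) and in C1s1 (as TTAGGCAA on the other strand, from base -242). The STAT motif TTCNNNGAA, held by 8.30% of windows, matched in C1ra as TTCCCTGAA from base 33. In Cd55 the E-box CAGCTG, held by 16.3% of windows, matched from base 5. The TATA motif TATAAA, held by 13.6% of windows, had no match in these 3 windows. No 2 matches overlapped. Of the 9 genes, 5 were in the promoter table (C3, C1ra, C1s1, Cd55 and Cd59a), so Clu, which also rose, had no window. The window of C3, a gene below detection, also held the C/EBP motif (TTGCGAAA from base -45) and the TATA motif (from base 15). The window of Cd59a held none of the 4 motifs.

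Libraries held 12784960 to 19604103 counts, with a median of 15434442.5. Levels are CPM, counts relative to library size scaled by TMM, written as mean ± standard deviation over 6 libraries, and SD always denotes the serum deprived group. Changes are log2 fold changes (log2FC) with their standard errors (SE). MET+LEU replicate 6 stood apart, with 7.64% of its counts on mitochondrial ribosomal RNA against at most 0.760% in the others. In the others this share also differed by group. It was 0.219% to 0.306% in 2% HS, 0.281% to 0.367% in SD and 0.244% to 0.705% in MET. In LEU it was 0.501% to 0.710%, and in the other MET+LEU libraries 0.649% to 0.760%. All of these libraries, and all MET libraries but replicate 2, were above every SD library. The part of this difference in the results was not tested. All 12 myotube markers looked for (such as Myh4, Ckm and Acta1) were detected. Of 8 leukocyte or macrophage markers, 2 (Adgre1, Tyrobp) were at 0 in all 30 libraries. So were 2 of 5 hepatocyte markers (Alb, Serpina1a) and 1 of 4 adipocyte markers (Lep). All hepatocyte and adipocyte markers were under 1 CPM in every library, and so were 6 of the 8 leukocyte markers, all but Cd68 and Cd14. Of 5 endothelial markers, 4 (Pecam1, Cdh5, Kdr and Tie1) were under 1 CPM in every library, and Vwf passed the filter.

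Per length of exon (FPKM, the scale on which genes can be compared), the 6 detected genes spanned a wide range. Averaged over all 30 libraries, Serping1 was at 14.1 FPKM, C1s1 at 8.81, C1ra at 6.24, Cd59a at 3.71, Clu at 1.58 and Cd55 at 0.727. The 3 genes below detection were at 0.0594 FPKM (Cfb), 0.0297 (C4b) and 0.0248 (C3). Serping1, C1s1 and C1ra, the inhibitor and the 2 proteases of the C1 complex, thus led the order, while C3, C4b and Cfb were close to the counting limit.

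C3 (ENSMUSG00000024164, chromosome 17, 57203970 to 57228136), the component at which the pathways meet, had 59 counts in all 30 libraries together. It had 0 to 3 counts per library in 2% HS, 0 to 6 in SD, 0 to 4 in MET, 0 to 5 in LEU and 0 to 3 in MET+LEU, and 7 libraries were at 0, which allows up to 3 counts in each. Summed over 6 libraries, the counts were 6 in 2% HS (95% exact Poisson interval 2.20 to 13.1) and 19 in SD (11.4 to 29.7), intervals that cover counting error only. When the filter was loosened to more than 5 counts over all libraries (25991 genes kept), the log2FC of C3 in SD vs. 2% HS was 1.58 (SE 0.79, adjusted p = 0.181), so no difference could be called at this depth.

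C4b (ENSMUSG00000073418, chromosome 17, 34728380 to 34743882), a C4 gene whose product C1s cleaves, had 77 counts, with 1 to 6 per library in 2% HS, 0 to 5 in SD, 0 to 7 in MET, 1 to 4 in LEU and 1 to 7 in MET+LEU. Its related copy C4a, with 8.26% of 150-base windows shared, had 1569 counts, and reads from the shared stretch may have been lost or split. Cfb (ENSMUSG00000090231, chromosome 17, 34856374 to 34862518) had 76 counts, with 2 to 4 per library in 2% HS, 1 to 5 in SD, 0 to 4 in MET, 0 to 4 in LEU and 1 to 5 in MET+LEU. Every group thus overlapped with every other for both genes. On the same strand, 79.5% of its exon bases are also annotated to the readthrough gene Gm20547, which had 0 counts in every library. Reads that overlap 2 genes may not have been counted for either, so the Cfb counts are uncertain. In the fit of 25991 genes, C4b had a log2FC of -0.46 (SE 0.67) and Cfb one of 0.45 (SE 0.63) in SD vs. 2% HS, and both missed the threshold (adjusted p = 0.730 and 0.709).

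**Figure D1:**
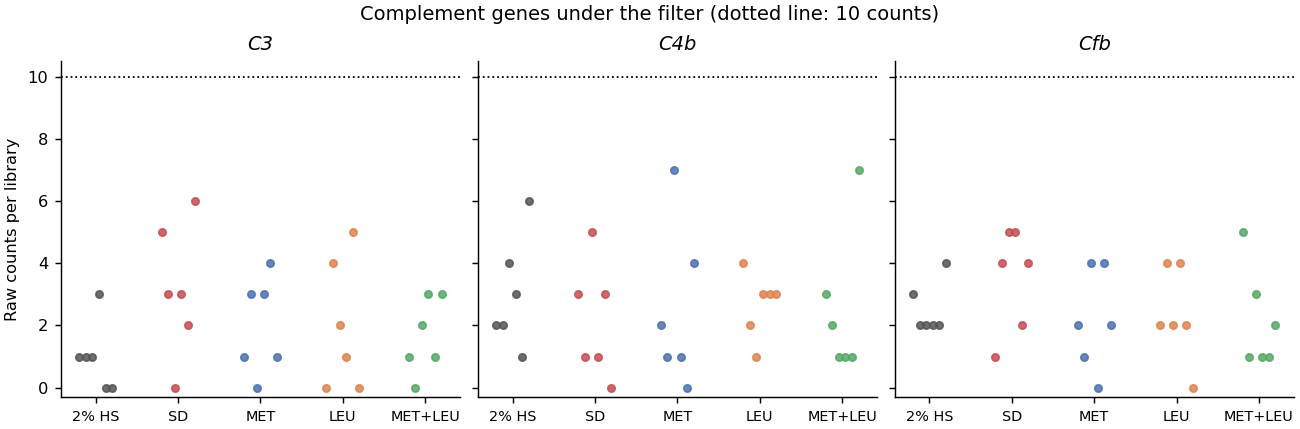
Raw counts of C3, C4b and Cfb (y axis) in each of 30 libraries by group (x axis), 1 point per library, with a dotted line at 10 counts. No library of any group reached 8 counts for these genes.

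SD vs. 2% HS asked what serum deprivation, the atrophy stimulus of the study, did. C1ra, C1s1 and Clu were upregulated and Cd55 was downregulated, while Serping1 and Cd59a did not pass the threshold (edgeR quasi-likelihood test, adjusted p under 0.05 over 15907 genes). These 4 of the 6 tested genes compare with 27.8% of all tested genes called in either direction. Higher calls made up 13.9% of all genes and lower calls 13.9%. The median log2FC was 0.30 over the 6 genes tested and 0.0028 over all genes.

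C1s1, the protease that cleaves C4 and C2, lay at 12.01 to 16.2 CPM in the 2% HS libraries (median 13.99) and at 25.6 to 30.6 CPM in the SD libraries (median 28.5). The 2 groups did not overlap, as for 13.6% of all genes. The level rose from 14.2 ± 1.58 to 28.2 ± 1.68 CPM (n = 6 each), a log2FC of 0.99 (SE 0.06, adjusted p = 2.5e-17). C1ra, which activates C1s, lay at 10.2 to 13.8 CPM in 2% HS (median 11.6) and at 16.7 to 21.1 CPM in SD (median 19.04). Again every SD library was above every 2% HS library. The mean rose from 11.9 ± 1.53 to 18.996 ± 1.46 CPM, a log2FC of 0.67 (SE 0.08, adjusted p = 3.2e-09). Within a library, the ratio of C1s1 to C1ra counts had a median of 1.21 in 2% HS (1.02 to 1.33) and of 1.45 in SD (1.33 to 1.74). On this measure the ranges of the groups met, and no test was made of the ratio.

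Both proteases have a related copy on the same chromosome. C1rb shares 26.3% of 150-base windows with C1ra and C1s2 shares 2.86% with C1s1, so C1ra is the less certain of the pair. Summed over 30 libraries, C1rb had 442 counts against 8665 for C1ra, and C1s2 had 912 against 12828 for C1s1. C1s2 rose from 1.02 ± 0.268 to 2.20 ± 0.296 CPM in SD, a log2FC of 1.09 (SE 0.20, adjusted p = 3.5e-05). C1rb went from 0.489 ± 0.272 to 0.965 ± 0.531 CPM and missed the threshold (log2FC 0.96, SE 0.40, adjusted p = 0.0700). On the opposite strand, 18.4% of C1s1 exon bases are annotated to the antisense gene Gm16567, which had 1 count in all.

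Clu (ENSMUSG00000022037, chromosome 14, 65968483 to 65981547), the chaperone that binds terminal complement components, had 2.21 to 3.67 CPM in 2% HS (median 2.98) and 4.75 to 6.57 CPM in SD (median 6.31). The groups did not overlap. The mean went from 2.94 ± 0.480 to 6.01 ± 0.694 CPM, a log2FC of 1.02 (SE 0.13, adjusted p = 2.4e-08). Cd55, which speeds the decay of C3 convertases on the cell surface, moved the other way. It lay at 3.46 to 5.51 CPM in 2% HS (median 4.66) and at 2.14 to 3.99 CPM in SD (median 2.84). The lowest 2% HS libraries fell within the range of SD. The mean dropped from 4.57 ± 0.791 to 2.83 ± 0.675 CPM, a log2FC of -0.69 (SE 0.15, adjusted p = 3.6e-04). Its copy Cd55b had 4 counts in 30 libraries, and the antisense gene Gm16083, which covers 2.10% of its exon bases, had 10.

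Serping1 (ENSMUSG00000023224, chromosome 2, 84765387 to 84775444), the inhibitor of C1r and C1s, had 29.8 to 36.2 CPM in 2% HS (median 34.7) and 26.4 to 34.6 CPM in SD (median 30.2). These ranges overlapped widely. The log2FC was -0.16 (SE 0.07, 95% interval -0.29 to -0.02, adjusted p = 0.0766). It passed the threshold with limma-voom (-0.19, adjusted p = 0.0258), with an offset for GC content (-0.17, 0.0425), and without 2% HS replicate 6 (-0.19, 0.0345), SD replicate 1 (-0.20, 0.0250), SD replicate 2 (-0.19, 0.0339) or MET+LEU replicate 6 (-0.15, 0.0491). Cd59a (ENSMUSG00000032679, chromosome 2, 104095801 to 104115354), which blocks the membrane attack complex, had 5.46 to 6.84 CPM in 2% HS (median 6.35) and 4.49 to 7.36 CPM in SD (median 5.81). Its log2FC was -0.07 (SE 0.17, 95% interval -0.42 to 0.28, adjusted p = 0.795). The copy Cd59b shares no 150-base window with Cd59a and had 54 counts in all.

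Fibroblast markers moved with C1ra, C1s1 and Clu. All 8 of 9 fibroblast markers that were tested (Col1a1, Col3a1 and Dcn among them; Thy1 was under 1 CPM) were higher in SD than in 2% HS. Their summed level was 4228 to 4637 CPM in 2% HS and 7059 to 7494 CPM in SD. The part of this shift in the complement result was not tested, and in bulk RNA fewer cells of a type and less RNA per cell cannot be told apart. Of 12 myotube markers, 1 rose and 5 fell, with summed levels of 12322 to 13022 CPM in 2% HS and 11201 to 12792 CPM in SD. Of 8 leukocyte markers, 2 were tested and 1 rose, and the sum of all 8 was at most 6.96 CPM in any library. The 1 endothelial marker tested, Vwf, fell, and none of the 4 adipocyte and 5 hepatocyte markers passed the filter.

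**Figure D2:**
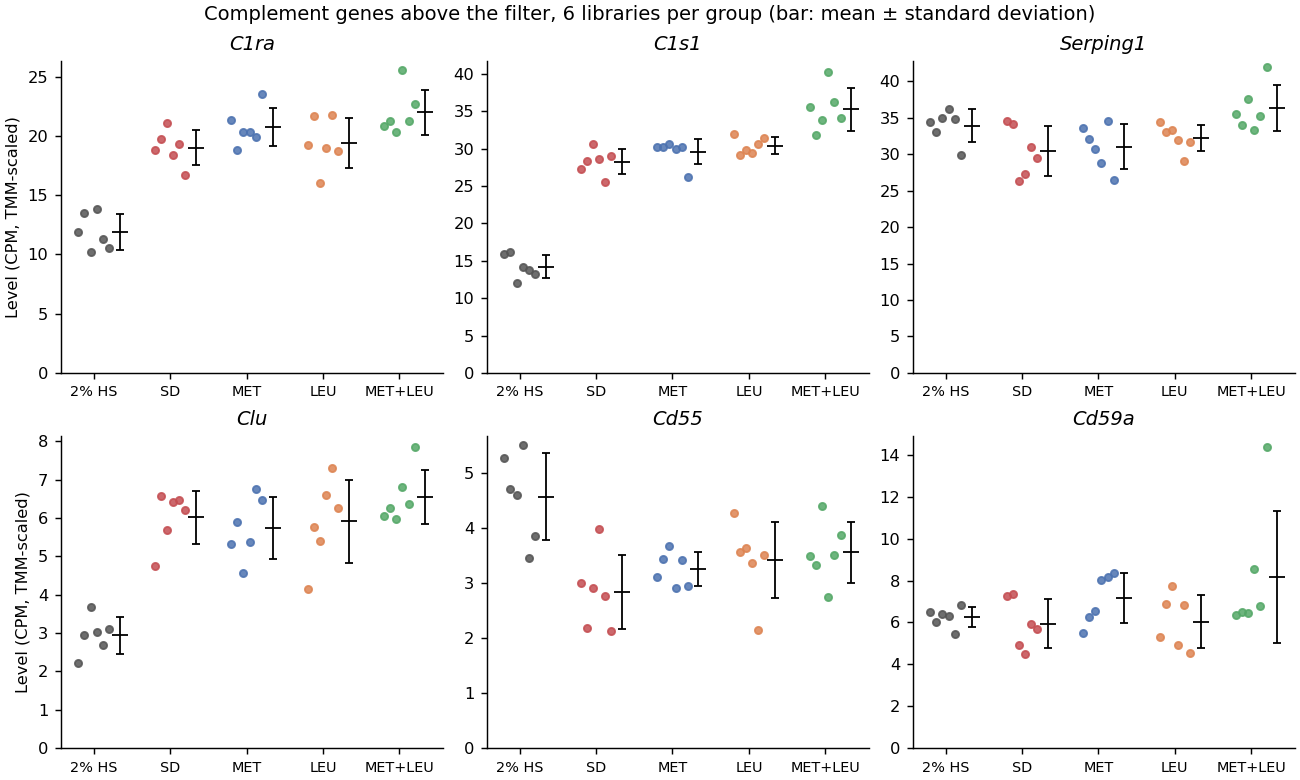
TMM-scaled CPM (y axis) of the 6 tested genes in each library by group (x axis, 6 points per group), with bars for mean ± standard deviation. C1ra, C1s1 and Clu sit lowest in 2% HS, Cd55 sits highest there, and 1 MET+LEU library (14.4 CPM) stands above the rest for Cd59a.

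MET vs. SD and LEU vs. SD asked whether metformin or leucine alone changed these genes under serum deprivation. None of the 6 tested genes passed the threshold in either comparison by edgeR, DESeq2 or limma-voom, and 0 had an unadjusted p under 0.05 by edgeR. Over all genes, 0.157% were called for MET and 0.553% for LEU. C1s1 was at 26.3 to 30.6 CPM in MET (median 30.3) and at 29.1 to 32.0 CPM in LEU (median 30.2). The log2FC values were 0.07 for MET (95% interval -0.05 to 0.19, adjusted p = 0.772) and 0.11 for LEU (-0.01 to 0.23, adjusted p = 0.582). C1ra was at 18.8 to 23.5 CPM in MET (median 20.3) and at 16.05 to 21.7 CPM in LEU (median 19.1), both overlapping SD, with 95% intervals of its log2FC of -0.03 to 0.28 and -0.12 to 0.18. For Serping1 the ranges were 26.4 to 34.6 CPM in MET (median 31.4) and 29.1 to 34.4 CPM in LEU (median 32.5). The 95% intervals of its log2FC were -0.11 to 0.16 for MET and -0.05 to 0.21 for LEU. Levels of Clu were 4.56 to 6.77 CPM in MET (median 5.63) and 4.15 to 7.29 CPM in LEU (median 6.01), with intervals of -0.31 to 0.18 and -0.26 to 0.22. In no case did the libraries of these groups part from those of SD. Cd55 was at 2.92 to 3.68 CPM in MET (median 3.26) and at 2.15 to 4.27 CPM in LEU (median 3.55), and Cd59a at 5.50 to 8.38 CPM (median 7.28) and 4.54 to 7.73 CPM (median 6.08). The widest intervals belonged to Cd59a, with -0.08 to 0.60 for MET and -0.33 to 0.37 for LEU on the log2 scale.

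MET+LEU vs. SD asked what the combination did. C1s1, Serping1 and C1ra were upregulated, so the C1 proteases and their inhibitor were all higher than in SD. These 3 of 6 genes compare with 18.4% of all genes called and 10.6% called higher, and the median log2FC was 0.28 over the 6 and -0.005 over all genes. This comparison shares its SD libraries with SD vs. 2% HS.

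C1s1 lay at 31.8 to 40.3 CPM in the MET+LEU libraries (median 34.8), above all 6 SD libraries, as 5.36% of genes did not overlap. Its mean was 35.3 ± 2.90 CPM, a log2FC of 0.32 vs. SD (SE 0.06, adjusted p = 1.1e-04). Serping1 lay at 33.3 to 42.0 CPM (median 35.4), and only its lowest libraries entered the range of SD. The mean went from 30.5 ± 3.45 CPM in SD to 36.3 ± 3.16 CPM, a log2FC of 0.25 (SE 0.07, adjusted p = 0.00631). C1ra lay at 20.3 to 25.5 CPM (median 21.3), with a mean of 21.98 ± 1.91 CPM and a log2FC of 0.21 (SE 0.08, adjusted p = 0.0431). The C1ra ranges overlapped, since the highest SD library was at 21.1 CPM.

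The C1ra call was the least secure of the 3. It was lost without SD replicate 1 (adjusted p = 0.0751), 2 (0.0524), 4 (0.0703) or 6 (0.108) and without MET+LEU replicate 4 (0.166), 5 (0.0565) or 6 (0.0735), by edgeR in each case. Upper-quartile scaling (adjusted p = 0.0614), limma-voom (0.0738), a fit of genes with more than 5 counts (0.0565) and a fit of the 2 groups alone (0.0848) also lost it. Without MET+LEU replicate 6, the library rich in mitochondrial ribosomal RNA, 2 genes remained called, C1s1 at 0.33 and Serping1 at 0.20 on the log2 scale.

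Cd59a, Cd55 and Clu did not pass the threshold in MET+LEU vs. SD. Cd59a was at 6.37 to 14.4 CPM (median 6.64), where the second highest library was at 8.53 CPM. Its log2FC was 0.44 (SE 0.17, adjusted p = 0.0633), and 0.22 (adjusted p = 0.294) without MET+LEU replicate 6. DESeq2 called it (0.45, adjusted p = 0.0320), and edgeR did without SD replicate 2 (0.51, 0.0459) or MET+LEU replicate 1 (0.50, 0.0411), 2 (0.50, 0.0406) or 3 (0.50, 0.0398). Cd55 was at 2.75 to 4.41 CPM (median 3.51), with a log2FC of 0.31 (95% interval -0.0036 to 0.63, adjusted p = 0.165), and was called without SD replicate 4 (0.44, 0.0492). Clu was at 5.97 to 7.85 CPM (median 6.31), with a log2FC of 0.12 (95% interval -0.12 to 0.37, adjusted p = 0.519).

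Beside these changes, 2 of 8 fibroblast markers rose and 2 fell in MET+LEU vs. SD, with a summed level of 6924 to 7618 CPM, and 6 of 12 myotube markers rose. The sum of the myotube markers was 12341 to 14537 CPM. Of 5 myoblast and dividing-cell markers, 3 fell. Their part in the result was not tested.

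**Figure D3:**
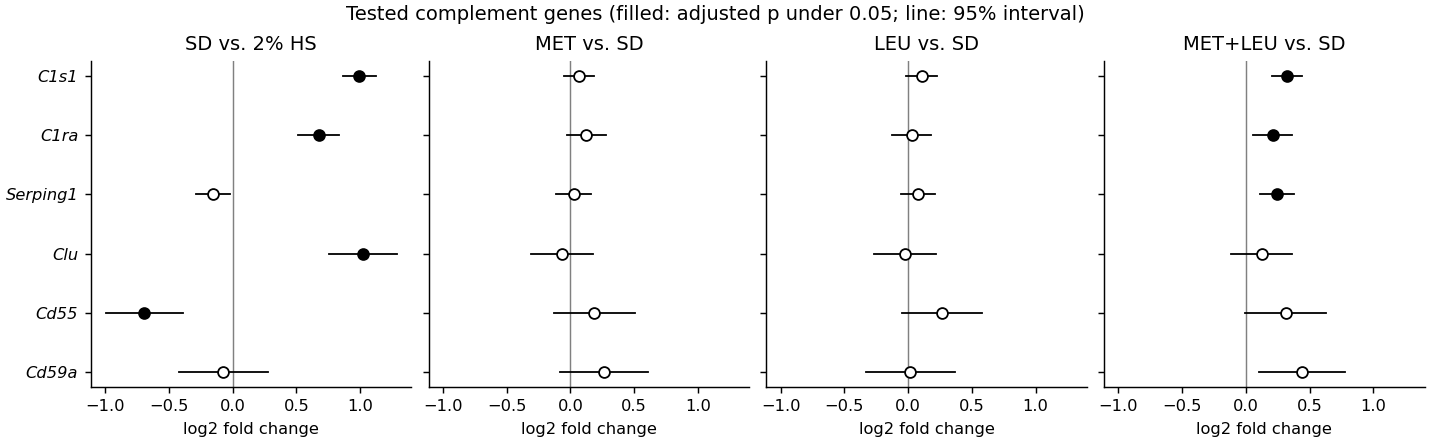
Log2FC values (x axis) of the 6 tested genes (y axis) in 4 comparisons, with 95% intervals as lines and filled points for an adjusted p under 0.05. In SD vs. 2% HS 4 points are filled, 3 in MET+LEU vs. SD and none in MET vs. SD or LEU vs. SD.

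MET+LEU was also set against 2% HS and against each single treatment. Against 2% HS, where 42.3% of genes were called, C1s1, C1ra and Clu remained higher (1.31, 0.89 and 1.15 on the log2 scale, adjusted p at most 8.2e-10) and Cd55 lower (-0.38, adjusted p = 0.0347). The Cd55 call was lost without 2% HS replicate 1 (adjusted p = 0.0813), 2 (0.0519), 3 (0.0502) or 4 (0.102) and without MET+LEU replicate 2 (0.0590) or 4 (0.0950). Serping1 was at 33.9 ± 2.23 CPM in 2% HS and 36.3 ± 3.16 CPM in MET+LEU, a log2FC of 0.09 (95% interval -0.04 to 0.22, adjusted p = 0.274). For Cd59a the log2FC was 0.37 (adjusted p = 0.0755), or 0.15 (0.394) without MET+LEU replicate 6, and it was called without MET+LEU replicate 1 (adjusted p = 0.0463), 2 (0.0477) or 3 (0.0480).

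Against MET, where 8.69% of genes were called, C1s1 was higher in MET+LEU by 0.25 on the log2 scale (SE 0.06, adjusted p = 0.00490) with no overlap (3.78% of genes). Serping1 was higher by 0.22 (SE 0.07, adjusted p = 0.0271), a call lost without MET replicate 4 (0.0757), MET replicate 6 (0.0848) or MET+LEU replicate 6 (0.106). Against LEU, where 6.28% of genes were called, C1s1 was higher by 0.21 (SE 0.06, adjusted p = 0.0212), and the ranges overlapped. That call was lost without LEU replicate 3 (0.0520), MET+LEU replicate 4 (0.0983) or MET+LEU replicate 5 (0.0522). The interaction of MET and LEU, which asks whether the combination differed from the sum of both on the log2 scale, was called for 0.0503% of genes and for 0 of the 6. By edgeR and by DESeq2 the count at an unadjusted p under 0.05 was also 0, and by limma-voom it was 1. After adjustment DESeq2 and limma-voom called 0. C1s1 had an interaction of 0.15 (95% interval -0.02 to 0.31, adjusted p = 0.637) and Serping1 one of 0.14 (-0.05 to 0.33, adjusted p = 0.696).

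The order of the group means shows which steps exceeded the spread. For C1s1 the order was 2% HS, SD, MET, LEU and MET+LEU, and only the first and last steps were larger than the larger standard deviation of the 2 neighbours. For C1ra (2% HS, SD, LEU, MET, MET+LEU) and Clu (2% HS, MET, LEU, SD, MET+LEU) only the step from 2% HS was. Cd55 ran from SD through MET, LEU and MET+LEU to 2% HS, and only the last step was larger. For Serping1 (SD, MET, LEU, 2% HS, MET+LEU) and Cd59a (SD, LEU, 2% HS, MET, MET+LEU) no step exceeded it.

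A list of 59 other complement and C1q-related genes by role shows the surroundings of these genes. It includes 9 C1q and TNF related genes, which share a C1q-like domain and are not components of the cascade. Of the 59, 16 were tested, and in SD vs. 2% HS 5 rose and 1 fell, with a median log2FC of 0.08, beside 27.8% of all genes called (13.9% in each direction). The C1q and TNF related genes were 4 of the 16 tested and gave 3 of the 5 rises. All 7 terminal pathway genes listed, which form the membrane attack complex, were under the filter, and C1qa, C1qb and C1qc, the recognition subunits of C1, were at 0 counts in all libraries. Of 8 other membrane regulators, 2 were tested, Cr1l and Cd46, at 5.11 and 1.06 FPKM over all libraries. In SD vs. 2% HS 0 of these 2 were called. Masp1, the lectin pathway protease related to C1r and C1s, rose from 31.6 ± 3.41 to 44.6 ± 2.22 CPM in SD (log2FC 0.50, SE 0.06, adjusted p = 7.6e-10). It was higher still in MET+LEU, at 56.1 ± 3.28 CPM (0.33 vs. SD, SE 0.05, adjusted p = 2.2e-05). Masp1 lay at 40.7 to 46.9 CPM in SD, 41.7 to 52.1 CPM in MET and 47.9 to 53.1 CPM in LEU. C1qtnf6, which carries a C1q-like domain, rose in SD by 0.35 (adjusted p = 8.1e-06), and C1qtnf1 of the same family by 0.27 (adjusted p = 0.0027).

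Itgb2, the beta chain of complement receptors 3 and 4, fell from 2.47 ± 0.577 to 1.06 ± 0.386 CPM in SD (-1.19, SE 0.23, adjusted p = 4.2e-05). The alpha chains of these receptors, Itgam and Itgax, were under the filter, with 55 and 45 counts in all libraries together. On the same strand, 68.7% of Itgam exon bases are also annotated to another gene, so its count is uncertain. In MET+LEU vs. SD, 2 of the 16 rose and 1 fell, with a median log2FC of 0.03, beside 18.4% of all genes called. Beside Masp1, the scavenger receptor Colec12 rose from 223 ± 7.08 to 287 ± 8.11 CPM (0.36, SE 0.03, adjusted p = 5.3e-10), and C1qtnf6 fell by 0.40 on the log2 scale (adjusted p = 7.7e-06). Of the C4 copies, C4a was at 3.55 ± 0.473 CPM in 2% HS, 3.26 ± 0.749 in SD and 3.11 ± 0.642 in MET+LEU, and it was not called in these comparisons.

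**Figure D4:**
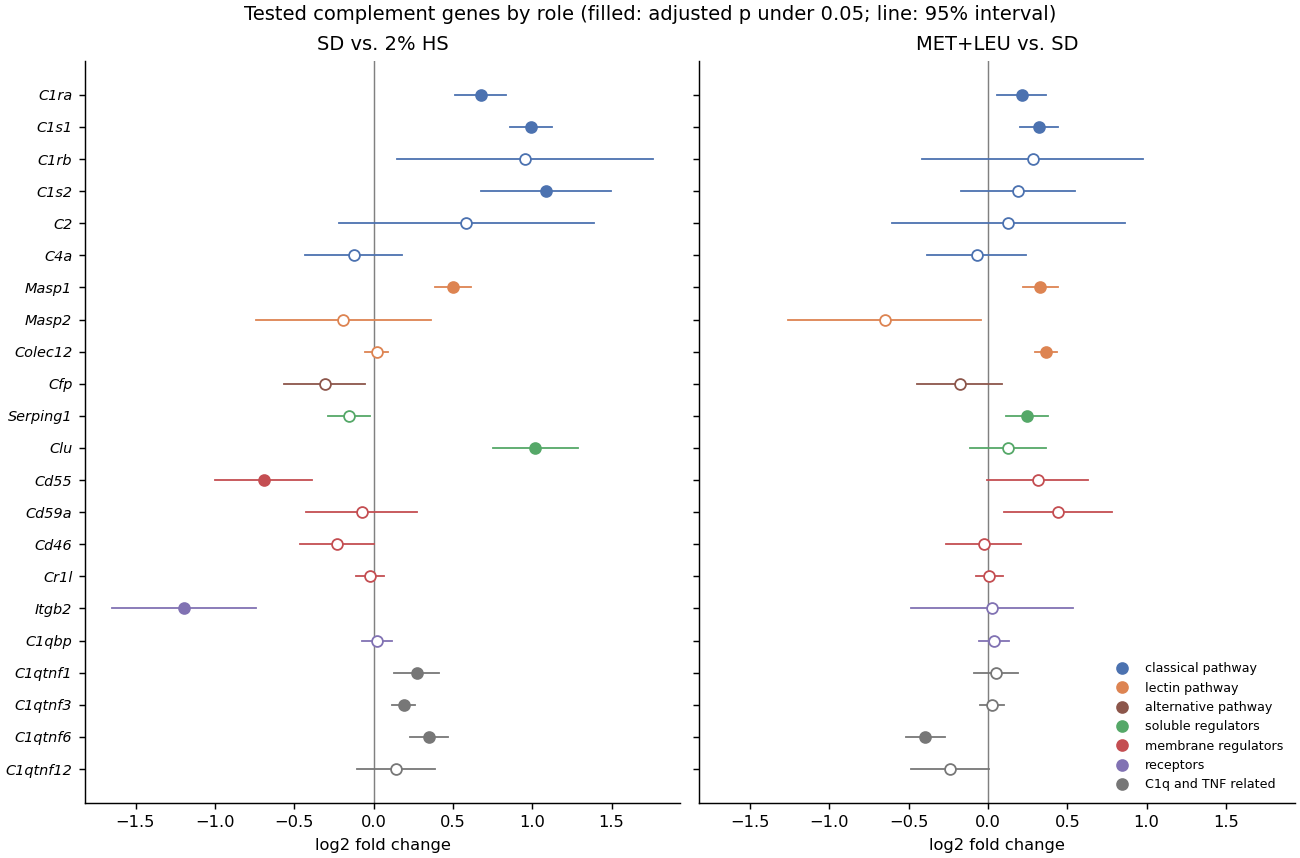
Log2FC values (x axis) of the 22 tested complement and C1q-related genes (y axis, coloured by role) in SD vs. 2% HS and MET+LEU vs. SD. Lines are 95% intervals, and filled points mark an adjusted p under 0.05. C1ra, C1s1, C1s2, Masp1 and Clu lie to the right in SD vs. 2% HS, and Cd55 and Itgb2 to the left.

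Across the 30 libraries, each gene was also set against all other tested genes by the Pearson correlation of log2 CPM, as a description, since the libraries share their group and their depth scaling. C1s1 was most like Cilp (r = 0.971), Col12a1 (0.970) and Hgf (0.967), and C1ra most like Ccdc80 (0.939), Hsd11b1 (0.930) and C1s1 itself (0.925). For Clu these were Slc1a3 (0.925), Gprin3 (0.922) and Aff3 (0.914). Within groups, with each group's mean removed, the values were 0.331 for C1ra with C1s1, 0.148 for C1s1 with Cilp and 0.507 for Clu with Slc1a3. Serping1 was most like Tmem123 (0.717), Myh4 (0.715) and Tro (0.700), Cd55 most like As3mt (0.804), Mamdc2 (0.754) and Ccdc62 (0.751), and Cd59a most like S100a11 (0.732), Ewsr1 (0.732) and Rpl5 (0.708). For these the values within groups were nearer to those over all libraries, at 0.586 for Serping1 with Tmem123, 0.687 for Cd55 with As3mt and 0.712 for Cd59a with S100a11.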

How the data were processed

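The authors isolated total RNA from 30 libraries of C2C12 myotubes, removed ribosomal RNA, prepared stranded libraries and sequenced them with reads of 150 bases. The deposited values are raw counts per Ensembl gene, whole numbers with no normalization. The submitters' processing notes name cutadapt 1.16, STAR 2.7.6a, featureCounts 1.6.3, DESeq2 1.30.1 and GRCm38, and how strand and reads on several genes were treated is not given in the sources used here. GENCODE M21 gave symbols for 55141 of 55487 identifiers, and the 346 without held 0.0268% of counts.

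Counts were filtered with filterByExpr (minimum count 10, minimum total 15; 15907 genes kept), scaled by TMM and fitted with edgeR 4.0.16 (R 4.3.3; robust quasi-likelihood, 1 mean per group, all 30 libraries) for 8 contrasts, with Benjamini-Hochberg adjustment over all genes. Each SE was taken as the size of the change over the square root of F. FPKM used exon lengths from GENCODE M21. The steps were tested on simulated data. The 9 genes and all gene lists were chosen with earlier results of these data known. Of the 59 other complement and C1q-related genes, the called changes named are at most the 5 largest each from SD vs. 2% HS and MET+LEU vs. SD. Also named are the copies C4a, C1rb, C1s2, Cd55b and Cd59b and, for each tested gene, the 3 genes most like it (mean log2 CPM not below 1). A further listed gene is not reported here. Alternatives were DESeq2 size factors, upper-quartile scaling, DESeq2 1.42.0, limma-voom (limma 3.58.1), 2 other filters, only the groups compared, a replicate block, leaving out each library, and a GC content offset that was added after the data were seen.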

Additional observations from a re-analysis of the deposited data

Results flagged for a closer look

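In 30 combinations of a tested gene and a group, the lowest and highest library were set against the other 5 by Dixon's criterion, by which chance alone marks about 1 group in 20, and 2 libraries stood out. Cd59a in MET+LEU replicate 6 was at 14.4 CPM, where the nearest library of the group was at 8.53 CPM and the other 5 had a mean of 6.93 CPM. That library held 7.64% of its counts on mitochondrial ribosomal RNA, and the part of this in the Cd59a value was not tested. C1s1 in MET replicate 6 was at 26.3 CPM, below the nearest library at 29.97 CPM and the mean of 30.3 CPM of the other 5.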

How the results depend on the processing

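Counts of called complement genes among the 6 tested were compared with those under each alternative. With only the groups compared in the fit, the count was 1 instead of 2 in MET+LEU vs. MET (Serping1 lost, adjusted p = 0.0796) and 0 instead of 1 in MET+LEU vs. LEU (C1s1 lost, adjusted p = 0.0631), with fewer libraries to estimate the spread. Other settings, apart from leaving out libraries, moved counts by smaller proportions. In SD vs. 2% HS limma-voom called 3 higher and 2 lower, and the GC content offset added Serping1. In MET+LEU vs. SD limma-voom called 2 higher and DESeq2 called 4 higher. Upper-quartile scaling, the fit of genes with more than 5 counts and the fit of only the groups compared lost C1ra there. Leaving out each library in turn gave 4 to 5 in SD vs. 2% HS, 2 to 4 in MET+LEU vs. SD, 3 to 5 in MET+LEU vs. 2% HS, 1 to 2 in MET+LEU vs. MET, 0 to 1 in MET+LEU vs. LEU, and 0 to 0 in MET vs. SD, LEU vs. SD and the interaction. Log2FC values near 0 that were not called changed sign in some of these fits: Serping1 in MET vs. SD ranged from -0.015 to 0.067, in LEU vs. SD C1ra from -0.0049 to 0.078, Cd59a from -0.064 to 0.092 and Clu from -0.090 to 0.063, Cd59a in MET+LEU vs. MET from -0.045 to 0.24, Cd55 in MET+LEU vs. LEU from -0.056 to 0.12, and the interactions of C1ra from -0.0063 to 0.10 and of Cd59a from -0.066 to 0.24. Cd55 in MET+LEU vs. LEU was also -0.0086 with the GC content offset, and the interaction of Cd59a was -0.037 with limma-voom. The cause was not tested.

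Replicate numbers showed little pairing of the libraries on average. Over 60 pairs with the same number in different groups, deviations from the group means had correlations from -0.18 to 0.35, and 12 were over 0.1. Their mean was 0.02, against -0.005 over 300 pairs with different numbers. Pairing of some libraries stays possible. With the replicate block, 4 genes were called in SD vs. 2% HS, 0 in MET vs. SD, 0 in LEU vs. SD, 3 in MET+LEU vs. SD, 4 in MET+LEU vs. 2% HS, 2 in MET+LEU vs. MET, 1 in MET+LEU vs. LEU and 0 for the interaction, and it changed no call of these genes. Other scalings moved the median of all genes by at most 0.03 on the log2 scale. At 3 counts or fewer per library, as often for C3, C4b and Cfb, counting error limits any comparison.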

Other observations

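Acute phase genes, many of which the liver makes together with complement, were looked at as a list of 15, of which 4 were tested. In SD vs. 2% HS 2 of the 4 fell by edgeR's quasi-likelihood test, where 27.8% of all genes were called and 13.9% fell. Lbp, which binds bacterial lipopolysaccharide, went from 6.04 ± 0.649 to 2.24 ± 0.414 CPM (log2FC -1.43, SE 0.14, adjusted p = 1.8e-11). Cp, the copper-carrying ferroxidase ceruloplasmin, went from 141 ± 10.8 to 73.8 ± 4.15 CPM (-0.93, SE 0.07, adjusted p = 9.4e-13). In MET+LEU vs. SD Cp rose to 86.4 ± 6.49 CPM (0.23, SE 0.07, adjusted p = 0.0198), and Lbp was at 2.93 ± 0.400 CPM (0.40, SE 0.15, adjusted p = 0.0642). Neither gene had SD libraries that overlapped with those in 2% HS (13.6% of all genes did not overlap), and the MET+LEU libraries of both lay above those of SD (5.36% of all genes did not overlap).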
